A study of Verbena bonariensis with 6 samples.

Results

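The TGA factors of *Verbena bonariensis*, an ornamental plant, were followed in leaves under cold stress. They were taken as the clusters (groups of assembled transcripts that stand for a gene) assigned to the bZIP family whose best protein match in the NR or Swissprot collection was described as TGA or PERIANTHIA. The rule found 31 clusters among 397 bZIP clusters and 9740 clusters in all, and it used only the annotation. Every cluster also has a best NR match, here a protein of a related plant, and the 31 clusters had 10 best matches.

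Leaves came from seedlings of the cultivar Finesse, 3 months old, grown with a 16 h photoperiod and at 25°C by day and 16°C by night. Cold-stressed seedlings spent 24 h at 4°C followed by 4 h at -4°C, and control seedlings stayed in the growth conditions. Each group had 3 libraries, named as biological replicates in the labels, and each was built from 3 µg of total RNA. The labels do not say how many seedlings were pooled, so differences between seedlings enter the tests only through the spread between libraries. Counting error enters them too.

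TGA factors are leucine zipper proteins that bind as pairs to DNA elements with a TGACG core. In Arabidopsis the TGA2 group brings the salicylic acid receptors of the NPR family to defence genes, and with the GRAS protein SCL14 it activates detoxification genes. TGA1 and TGA4 act in basal defence and in the response of roots to nitrate, and PERIANTHIA sets the number of floral organs. The wheat factors named HBP-1b belong to the same family and were first described as proteins that bind histone gene promoters. Tobacco TGA-1A is a relative of TGA1 and TGA-2.1 a relative of TGA2.

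By these names, 11 clusters with 4 best matches belonged to the TGA1 and TGA4 group, 19 clusters with 5 best matches to the TGA2 group, and 1 cluster to PERIANTHIA. TGA-2.1 was placed with TGA2 after the annotation had been seen. Swissprot gave the TGA or PERIANTHIA name in 30 clusters and NR in 12. No cluster was described as TGA3 (0 clusters), and the same held for TGA5, TGA6, TGA7, TGA9 and TGA10. A bZIP domain was found in 29 of the 31 clusters. The domain named seed dormancy control, which the seed dormancy regulator DOG1 also carries, was found in 22 of them, against 13 of the 366 other bZIP clusters. Those 13 include some of the 7 HBP-1b clusters that share a best match with TGA clusters but lack a TGA name, such as Cluster-14918.85797. Cluster length ran between 844 and 2269 bases, and the coding region was in 1 piece in 24 clusters and in 2 pieces in 7.

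The table of regulators held 722556 to 791041 counts per cold library and 991180 to 1213366 per control library. This was 5.52% to 5.53% of the whole library in cold and 5.85% to 5.86% in control. The leaf label was checked with regulators. GLK (GOLDEN2-like) clusters, which drive chloroplast development, summed to 106 to 107 FPKM (a level scaled to length and library depth) in cold libraries and 120 to 127 in control libraries. YABBY clusters, which mark the lower side of leaves, summed to 55.0 to 63.2 FPKM in cold and 33.7 to 39.1 in control. SPEECHLESS and MUTE, which act early in the stomatal lineage, were higher in cold without overlap, at 1.08 to 1.31 FPKM in cold and 0.39 to 0.54 in control for SPEECHLESS, and 0.60 to 1.56 in cold and 0.10 to 0.50 in control for MUTE. FAMA, which acts late in it, overlapped between the groups. Of the 6 floral organ names searched (AGAMOUS, APETALA1, APETALA3, PISTILLATA, DEFICIENS and GLOBOSA), DEFICIENS alone had clusters, with at most 0.08 FPKM in cold and 1.20 to 1.83 in control. The part of these shifts in the TGA values was not tested.

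TGA transcripts took a smaller share of the regulator counts in cold leaves. Summed over the 31 clusters, normalized CPM (counts scaled to the counts of the table with TMM factors) were 637, 654 and 634 in the cold libraries, against 1650, 1842 and 1717 in the control libraries. The mean was 642 ± 10.7 in cold and 1736 ± 97.3 in control (SD, n = 3 each), a log2 ratio of -1.44. The groups did not overlap, and the control total was 2.71 times the cold total. No test was run on this total. In whole leaves, fewer cells that express a gene and less RNA per cell cannot be told apart.

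The drop was present in both large groups. The TGA2 group summed to 402 ± 27.0 CPM in cold and 1191 ± 61.0 in control, a log2 ratio of -1.57. The TGA1 and TGA4 group summed to 239 ± 21.5 CPM in cold and 544 ± 40.1 in control, a log2 ratio of -1.19. The other 366 bZIP clusters went the other way as a total, with 37780 ± 559 CPM in cold and 25420 ± 252 in control, a log2 ratio of 0.57. Among them are 11 clusters with an HBP-1b name and no TGA name, of which 3 were tested as clusters. edgeR called 0 of these higher and 1 lower, against 21.9% higher and 23.6% lower over all clusters tested. Their median log2 fold change was -1.65, against -0.14 for all clusters tested. Summed by best match, 4 sums with such clusters were tested, with 0 higher and 3 lower (75.0%) and a median of -1.84. Over all sums tested, 34.6% were higher and 37.7% lower. Some of these sums are also sums of TGA best matches.

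**Figure D1:**
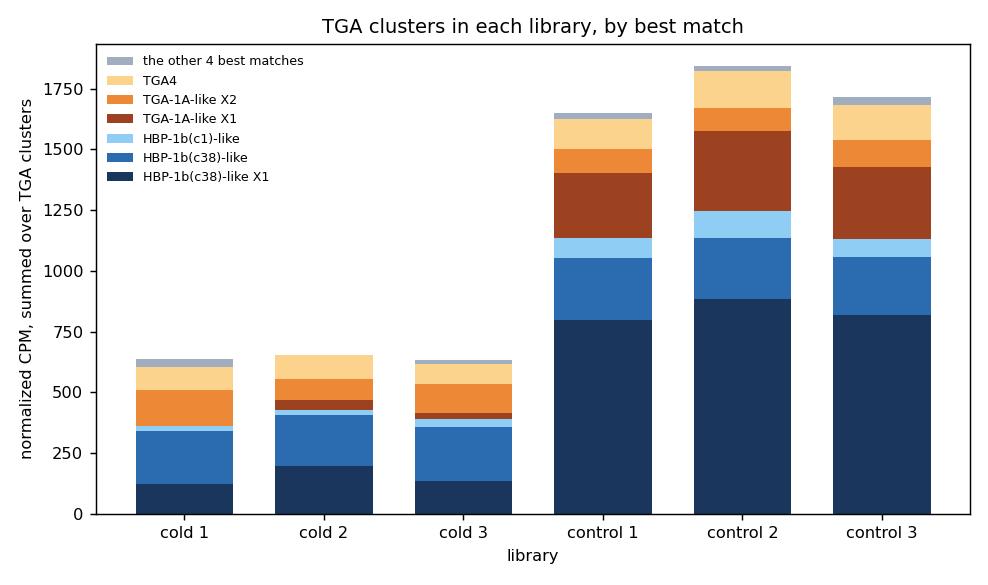
Stacked bars give the summed normalized CPM of the 31 TGA clusters in each cold and control library, divided by best match. The 3 cold bars reach 634 to 654 and the 3 control bars 1650 to 1842, and the HBP-1b(c38)-like X1 and TGA-1A-like X1 blocks account for most of the gap.

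A few clusters carried the difference. Cluster-14918.134210, whose best match is HBP-1b(c38)-like isoform X1, made up 59.0% of the gap between the group means. Cluster-14918.142636, whose best match is TGA-1A-like isoform X1, made up 25.1%. Without these 2 clusters, a choice made after seeing the data, the remaining 29 summed to 496 ± 58.4 CPM in cold and 671 ± 14.7 in control, a log2 ratio of -0.43.

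Of the 31 clusters, 12 had enough counts to be tested, 14 had counts but too few, and 5 had 0 counts in every library. By the quasi-likelihood test of edgeR, with adjustment over all 5004 clusters tested, 0 TGA clusters passed as higher and 3 as lower in cold, which is 25.0% of the 12. Over all clusters tested, 21.9% were higher and 23.6% lower, 45.5% in either direction, so the share of TGA clusters called lower was close to that of all clusters. The median log2 fold change was -0.95 for the 12 and -0.14 for all clusters tested. Negative values made up 9 of the 12, against 2645 of all 5004 tested. At an unadjusted p under 0.05 the counts were also 0 higher and 3 lower, and DESeq2 and limma each called 0 higher and 4 lower. Over all 5004 clusters, DESeq2 called 1394 higher and 1416 lower. There limma called 1204 higher and 1760 lower on log2(FPKM + 1), and 1160 and 1653 on log2(FPKM + 0.1). Each cold library was below each control library in 4 of the 12, against 34.3% of all clusters tested, and above in 0, against 29.6%. The groups overlapped in the other 8.

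**Figure D2:**
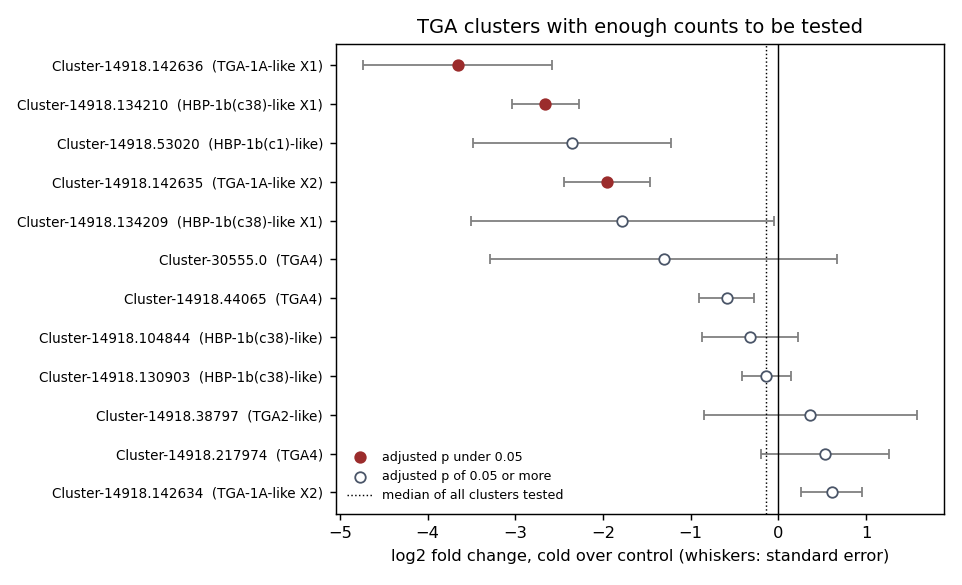
Log2 fold change of the 12 tested TGA clusters, cold over control, with the standard error as whiskers and the best match in brackets. Filled points (3 of 12) passed an adjusted p of 0.05 in edgeR, all of them left of 0, and the dotted line is the median of all clusters tested, -0.14.

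Reads of related clusters can be divided between them in counting, so counts were also summed over all clusters with the same NR match. These sums take in 7 further bZIP clusters that carry only a wheat HBP-1b name, 38 clusters in all. Of the 10 sums, 7 could be tested. edgeR called 0 higher and 4 lower in cold, 57.1% of the 7, with adjustment over 2296 sums. Over all sums tested, 34.6% were higher and 37.7% lower, 72.3% in either direction. The median log2 fold change was -0.51 for the 7 and -0.08 for all sums. The unadjusted counts were again 0 higher and 4 lower, DESeq2 gave 0 and 4, and limma gave 0 and 5. Over all 2296 sums, DESeq2 gave 848 higher and 830 lower. There limma gave 658 higher and 1126 lower on log2(FPKM + 1), and 654 and 1109 on log2(FPKM + 0.1). All cold libraries were below all control libraries in 4 of the 7 sums tested, against 41.3% of all sums tested.

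The choice of scaling moved all values together. With whole-library totals in place of TMM factors, the median log2 fold change of all sums moved by -0.37 and that of all clusters by -0.24. The sums called over the whole table were then 638 higher and 1092 lower, against 795 and 866 with TMM factors. All 4 TGA sums called lower passed an adjusted p of 0.05 in each of 15 other fits (other scalings, filters and tools, the block, single libraries left out), and 3 remained at an adjusted p under 0.01, without TGA4 (0.0124 in edgeR), while the direction of 2 others depended on the scaling, as given beside them.

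**Figure D3:**
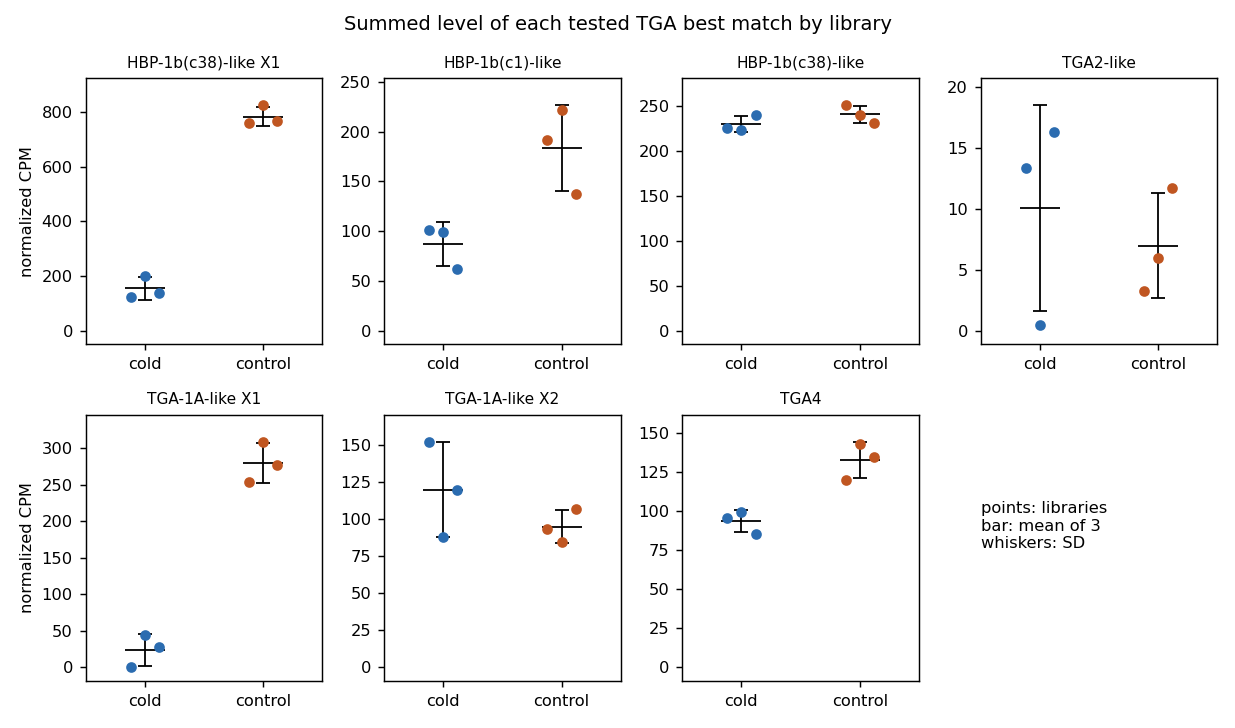
Normalized CPM of the 7 tested best-match sums in each library (points), with the mean and SD of 3 cold and 3 control libraries. The 2 groups stand apart in HBP-1b(c38)-like X1, HBP-1b(c1)-like, TGA-1A-like X1 and TGA4, and overlap in the other 3.

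HBP-1b(c38)-like isoform X1, whose 4 clusters have tobacco TGA-2.1 as their Swissprot name, was the most abundant TGA match in control leaves. It had 125, 202 and 139 CPM in the cold libraries, against 758, 824 and 766 in the control libraries. Every cold library was far below every control library. The means were 155 ± 41.0 CPM in cold and 783 ± 35.8 in control, a log2 fold change of -2.34 (SE 0.14, adjusted p = 1.9e-06, edgeR). Among all 2296 sums, its fold change stood at the 10.4 percentile counted from the lowest.

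Most of this match was Cluster-14918.134210, 2269 bases long. It had 81.9, 121 and 46.4 estimated counts in cold, against 732, 1063 and 869 in control. Its normalized level was 122 ± 58.6 CPM in cold and 768 ± 77.8 in control, with a log2 fold change of -2.66 (SE 0.38, adjusted p = 0.00283, edgeR). The groups were well apart, and the call held in all 15 alternatives. It held 19.0% of the TGA total in cold and 44.2% in control.

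A second cluster of this match, Cluster-14918.134209, has as many bases before the coding region (524) but 48 bases after it, where Cluster-14918.134210 has 341. It had 0, 0 and 42.3 estimated counts in cold, against 91.4, 33.8 and 98.4 in control, and its log2 fold change of -1.78 (SE 1.73, adjusted p = 0.455, edgeR) did not pass. The third cold library alone had counts, and there the 2 clusters had close to equal counts. Without that library the cold group was at 0 for this cluster. Cluster-18319.0, whose score to this match is low (392, against 1653 for Cluster-14918.134210), had 0, 10.1 and 10.6 counts in cold and 0 in each control library, too few to be tested.

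TGA-1A-like isoform X1 had a single cluster, Cluster-14918.142636, named TGA1 by Swissprot. It had 0.03, 28.6 and 20.3 estimated counts in cold, against 275, 410 and 350 in control. The first cold library was close to 0 and the other cold libraries stayed under every control library. As a sum it had 24.1 ± 22.2 CPM in cold and 279 ± 27.6 in control, 11.6-fold lower in cold. This was a log2 fold change of -3.52 (SE 0.55, adjusted p = 0.000604, edgeR), at the 4.40 percentile of all sums. It was -2.94 without cold replicate 1 and -4.25 without cold replicate 2, and passed in both fits.

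Tested as a cluster, with a spread estimated over clusters, the same counts gave -3.66 (SE 1.08, adjusted p = 0.0366, edgeR), and 8 of 15 alternatives kept it under 0.05. Leaving out cold replicate 2 or 3 or any control replicate raised the adjusted p of the edgeR test to between 0.0502 and 0.0959.

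TGA-1A-like isoform X2 had 3 clusters and did not pass the test. It had 152, 88.0 and 120 CPM in cold, against 93.4, 84.9 and 107 in control. The groups overlapped, and the log2 fold change was 0.34 (SE 0.22, adjusted p = 0.199, edgeR). It was -0.03 with whole-library totals, and 0.53 with an adjusted p of 0.0402 in edgeR without cold replicate 2, the lowest of the cold libraries.

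Inside this match the clusters differed. The longest, Cluster-14918.142635, had 2.75, 6.49 and 5.63 estimated counts in cold, against 29.0, 30.3 and 38.2 in control. Its log2 fold change was -1.95 (SE 0.49, adjusted p = 0.0215, edgeR), and 8 of 15 alternatives kept it under 0.05. Without any one of cold replicates 1 and 3 or the control replicates, the adjusted p of edgeR was 0.0557 to 0.0763. Its coding region is in 2 pieces, and no bZIP domain was found in it.

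The most abundant, Cluster-14918.142634, had 97.1, 43.9 and 80.1 estimated counts in cold, against 72.5, 75.3 and 93.1 in control. After scaling it had 106 ± 39.7 CPM in cold and 69.97 ± 9.15 in control, and its log2 fold change of 0.61 (SE 0.35, adjusted p = 0.213, edgeR) did not pass. It made up 97.2%, 76.4% and 93.4% of the isoform X2 sum in the cold libraries and 71.4%, 66.6% and 68.9% in the control libraries, without overlap.

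Cluster-14918.142636 and Cluster-14918.142634 differ outside the coding region. Both have a coding span of 1125 bases, an NR score of 1430 and 429 bases after the coding region, and Cluster-14918.142636 has 248 more bases before it (355 against 107). Cluster-14918.142636 made up 0.03%, 33.2% and 19.1% of the summed counts of both isoforms in cold, against 73.0%, 78.4% and 72.1% in control. How far the counting program could tell these clusters apart was not tested.

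The 2 isoform matches were therefore also added, a choice made after seeing the data. Together they had 99.9, 86.0 and 106 estimated counts in cold, against 376, 523 and 485 in control. The spread within the cold group was small in this sum, with 144 ± 10.7 CPM in cold and 374 ± 24.7 in control, 2.60-fold lower in cold. Its log2 fold change was -1.38 (SE 0.10, adjusted p = 4.8e-06, edgeR).

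**Figure D4:**
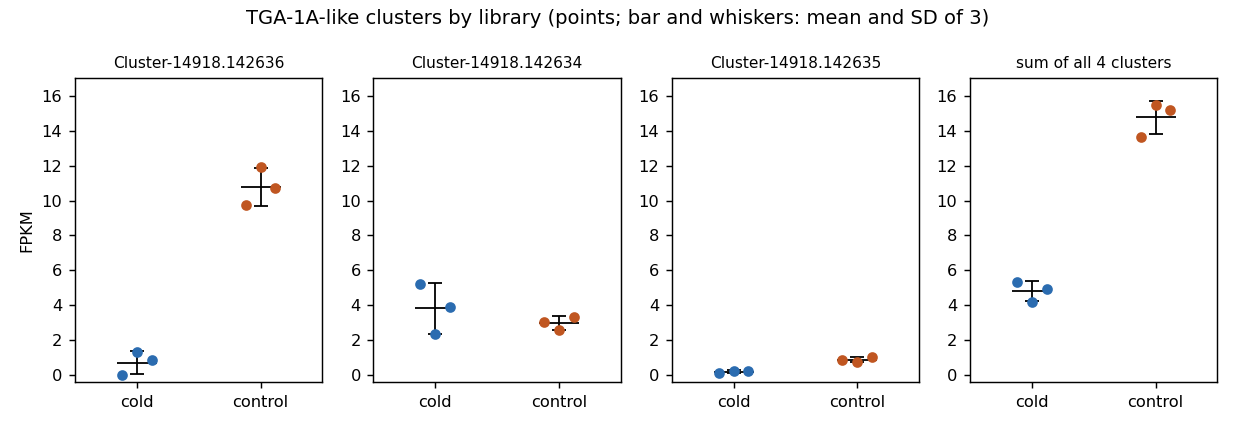
FPKM of the 3 main TGA-1A-like clusters and of the sum of all 4, by library (points), with the mean and SD of 3 cold and 3 control libraries. Cluster-14918.142636 lies between 0 and 1.29 in cold and between 9.76 and 11.9 in control, Cluster-14918.142634 overlaps between the groups, and the sum is 4.16 to 5.33 in cold and 13.7 to 15.5 in control.

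TGA4 isoform X2, the second match of the TGA1 and TGA4 group, fell by less. Its 6 clusters had 95.9, 99.7 and 85.7 CPM in cold, against 120, 143 and 135 in control. All cold libraries were below all control libraries, by a small margin. The means were 93.8 ± 7.21 CPM in cold and 133 ± 11.6 in control, a log2 fold change of -0.51 (SE 0.14, adjusted p = 0.0124, edgeR).

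Its most abundant cluster, Cluster-14918.44065, had 53.2, 43.2 and 52.1 estimated counts in cold, against 114, 173 and 85.3 in control. The log2 fold change of -0.59 (SE 0.31, adjusted p = 0.177, edgeR) did not pass, and the scaled levels overlapped. Of the other TGA4 clusters tested, Cluster-14918.217974 had 0.53 (adjusted p = 0.598, edgeR) and Cluster-30555.0 had -1.31 (adjusted p = 0.634, edgeR).

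HBP-1b(c1)-like, in the TGA2 group, had 9 clusters, 5 of them with a TGA name. The sum was 101, 99.5 and 61.5 CPM in cold, against 191, 222 and 137 in control. The groups did not overlap, with 87.3 ± 22.3 CPM in cold and 183 ± 42.8 in control, and the log2 fold change was -1.08 (SE 0.25, adjusted p = 0.00493, edgeR). Over the 5 clusters with a TGA name alone, a sum added after seeing the data, it was -1.86 (SE 0.28, adjusted p = 0.000531, edgeR).

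Its most abundant cluster over all 6 libraries was Cluster-14918.53020, with 13.0, 0 and 21.4 estimated counts in cold, against 85.8, 125 and 75.1 in control. Each cold library was below each control library. A log2 fold change of -2.35 (SE 1.13, adjusted p = 0.146, edgeR) did not pass. It passed in 4 of 15 alternatives, and the adjusted p of the others reached 0.28, in edgeR without control replicate 2. It passed with DESeq2 (adjusted p = 0.0453) and with limma on log2(FPKM + 1) (0.00541) and on log2(FPKM + 0.1) (0.0437). It also passed in edgeR without cold replicate 2, the library at 0 (adjusted p = 0.0244). In cold leaves Cluster-14918.85797, which carries only a wheat HBP-1b name, was more abundant, with 42.2 ± 18.3 CPM in cold and 45.9 ± 15.8 in control, a log2 fold change of -0.10 (adjusted p = 0.883, edgeR).

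HBP-1b(c38)-like without an isoform number, the other large match of the TGA2 group, did not pass the test. Its 10 clusters had 225, 223 and 240 CPM in cold, against 250, 240 and 231 in control. The log2 fold change was -0.06 (SE 0.08, adjusted p = 0.532, edgeR), 0.02 with DESeq2 and with RLE factors, and the groups overlapped. This call turned on the scaling. With whole-library totals the value was -0.43 (adjusted p = 0.0021, edgeR), and the deposited FPKM summed to 16.6, 16.5 and 18.1 in cold, against 24.4, 23.6 and 22.5 in control, without overlap.

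Its reads lay mainly in Cluster-14918.130903, with 74.9, 76.1 and 139 estimated counts in cold, against 177, 194 and 150 in control. The log2 fold change was -0.14 (SE 0.28, adjusted p = 0.727, edgeR). Cluster-14918.104844 had -0.33 (adjusted p = 0.668, edgeR). Cluster-14918.130903 was 21.5% of the TGA total in cold and 8.74% in control.

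TGA2-like, matched to a tobacco relative, was represented by Cluster-14918.38797 at a low level. Its sum was 13.4, 0.43 and 16.3 CPM in cold, against 3.29, 5.93 and 11.7 in control. The log2 fold change was 0.49 (SE 0.98, adjusted p = 0.668, edgeR), and a difference was not detectable at this depth.

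The remaining 3 matches were too low to be tested. The match to an unnamed coffee protein, with 2 clusters named TGA2 and TGA-2.1 by Swissprot, had 0 counts in every cold library and 12.8, 9.60 and 23.6 estimated counts in control. Set against a floor of 3 counts over the cold group, it was at least 8.49-fold lower in cold. Its Cluster-14918.113947 has 238 bases before and 369 after the coding region, as has Cluster-14918.160754 of HBP-1b(c1)-like. Its Cluster-14918.160753 has 238 and 1, as has Cluster-14918.53020 of HBP-1b(c1)-like. How reads were divided between these clusters was not tested, and the bound does not cover it. The PERIANTHIA cluster, Cluster-14918.137759, has this name from Swissprot alone. Its NR match is another protein described as HBP-1b(c38)-like. It had 0, 1 and 1 counts in cold and 0, 4 and 0 in control. TGA1-like had 14.1, 0 and 0 counts in cold and 7.89, 3 and 0 in control, so both were near the floor. Floors cover counting error only.

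The 14 clusters with counts but no test had 2.23 to 53.1 counts over the 6 libraries. Of these, 6 had counts only in control and 1 only in cold. Control libraries also held more counts, 991180 to 1213366 each, against 722556 to 791041 in cold. The part of this depth in the split was not tested. They held 6.55% of the TGA total in cold and 2.92% in control.

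Levels between matches were compared per length, as the deposited FPKM. In cold leaves HBP-1b(c38)-like stood alone at 17.04 ± 0.90 FPKM. It was followed by TGA-1A-like X2 (4.10 ± 1.23 FPKM), HBP-1b(c38)-like X1 (4.02 ± 0.97 FPKM), HBP-1b(c1)-like (3.63 ± 0.69 FPKM) and TGA4 (3.00 ± 0.17 FPKM), and neighbours in this order differed by less than the larger of their SDs. TGA-1A-like X1 came after them at 0.71 ± 0.65 FPKM.

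In control leaves HBP-1b(c38)-like X1 (25.4 ± 0.90 FPKM) and HBP-1b(c38)-like (23.5 ± 0.95 FPKM) came first. TGA-1A-like X1 (10.8 ± 1.09 FPKM) and HBP-1b(c1)-like (10.2 ± 2.48 FPKM) differed by less than the larger of their SDs, and TGA4 (5.63 ± 0.54 FPKM) and TGA-1A-like X2 (3.96 ± 0.47 FPKM) came after them. HBP-1b(c38)-like X1 and TGA-1A-like X1 stood higher in the order of control leaves than in that of cold leaves.

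Regulators tied to TGA factors in Arabidopsis were taken by name, 110 clusters with 39 best matches. Searches for the names BLADE-ON-PETIOLE, ORA59, WUSCHEL, AGAMOUS and CBP60 found 0 clusters each, and the NPR clusters were named NPR3, NPR4 or NPR5. Of the 39 sums, 33 were tested. edgeR called 5 (15.2%) higher and 24 (72.7%) lower in cold, against 34.6% higher and 37.7% lower over all sums, and the median log2 fold change was -2.09 against -0.08 for all sums. The 3 NPR sums, receptors or relatives of the salicylic acid receptor that bind TGA factors, did not share a direction. In Arabidopsis NPR5 is another name of a BLADE-ON-PETIOLE protein, which shapes leaves. The 0 clusters above therefore hold for the searched name, not for this type of protein. NPR5-like had 379, 408 and 401 CPM in cold, against 50.7, 57.1 and 69.7 in control, a log2 fold change of 2.74 (SE 0.13, adjusted p = 3.44e-07, edgeR). NPR3 had 1.08 and NPR3-like had -1.42, both past the threshold.

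Sums named SCL14, the GRAS partner of the TGA2 group, were tested in 4 cases, with 1 higher and 3 lower, against 34.6% and 37.7% over all sums. The WRKY sums, zinc finger factors of the defence response that include salicylic acid regulators, were lower in all 18 cases tested, against 37.7% of all sums, with a median of -2.83. By cluster, 1 was higher, 36 were lower and 11 did not pass, against 21.9% higher and 23.6% lower over all clusters tested. They were matched on either description, so some carry another name in NR. Each sum takes in every cluster of its NR match, also clusters without a searched WRKY name, as in a probable WRKY41 sum of 14 clusters. The counts by cluster cover only clusters with a searched name. A probable WRKY53 had 14.2, 11.8 and 20.9 CPM in cold, against 672, 651 and 783 in control, a log2 fold change of -5.46 (SE 0.17, adjusted p = 3.57e-08, edgeR). An isoform X1 of WRKY53 had 0 counts in each cold library and 84.7, 69.6 and 50.6 in control, at least 38.3-fold lower in cold against the floor of 3 counts over the group.

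The NAC sums, relatives of the stress factors ATAF1 and ATAF2, went both ways, with 2 higher, 2 lower and 4 not past the threshold, so 25.0% were called in each direction, against 34.6% higher and 37.7% lower over all sums. A putative NAC factor had 3.05, 0 and 6.33 CPM in cold, against 552, 548 and 572 in control, a log2 fold change of -7.28 (SE 0.27, adjusted p = 1.07e-07, edgeR). NAC domain-containing protein 2-like, the most abundant of them, had 12080, 12680 and 12350 CPM in cold, against 4666, 4763 and 4609 in control, a log2 fold change of 1.40 (SE 0.03, adjusted p = 2.93e-09, edgeR). A sum of 8 clusters, 6 of them named NAC domain-containing protein 2 or ATAF2 by Swissprot, whose NR match is an aspartic proteinase, had 1637, 1594 and 1676 CPM in cold, against 176, 262 and 266 in control, a log2 fold change of 2.79 (SE 0.13, adjusted p = 3.02e-07, edgeR).

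**Figure D5:**
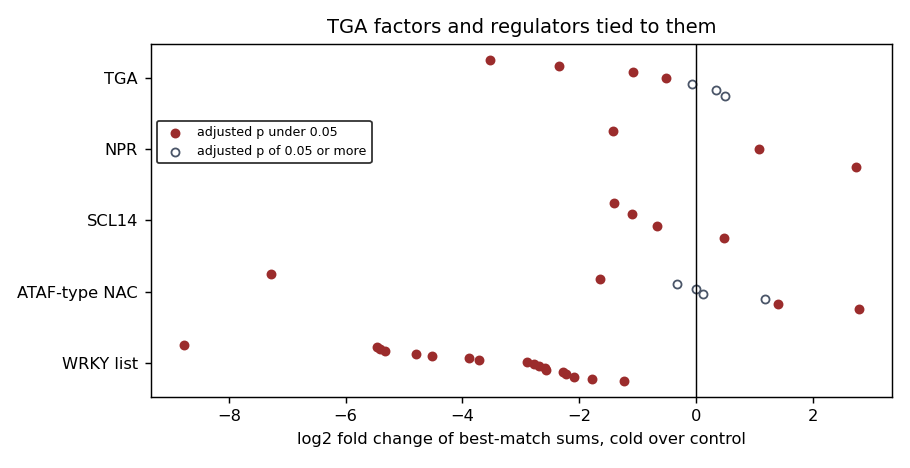
Log2 fold change, cold over control, of each tested best-match sum of the TGA factors and of the regulators tied to them, filled where the adjusted p of edgeR was under 0.05. All 18 WRKY points lie left of 0 while the 3 NPR points lie on both sides, and the WRKY point farthest left belongs to a sum at 0 in cold, whose fitted value is no bound.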

How the data were processed

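RNA of V. bonariensis leaves was sequenced from TruSeq libraries, 3 per group, and libraries were assigned by their labels. The authors deposited 1 table of transcription factors and other regulators, with 10251 lines for 9740 clusters. Its estimated counts, as the authors deposited them, are raw and partly fractional. The deposited FPKM values take account of cluster length and of the sequencing depth of the whole library. A log2 ratio, a p-value and a q value in the deposited table hold the authors' own comparison and were not used. TopHat2 2.0.12 and Bowtie2 2.0.6 are named in the submitters' processing notes, with no role stated, and the counting program is not given in the sources used here. How it divided reads among near-identical clusters limits single clusters more than sums.

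Counts were rounded and fitted over the whole table, by cluster and by the sum per NR match, with edgeR 4.0.16 in R 4.3.3 (quasi-likelihood, TMM factors, filterByExpr at its minimum count of 10, only condition in the model, Benjamini-Hochberg threshold 0.05). The SE of a log2 fold change was obtained by dividing it by the root of its F value. Normalized CPM of a sum uses the factors of the sum fit. Whole-library totals were recovered from count, FPKM and length of clusters at 5 FPKM or more. Alternatives were DESeq2 1.42.0, RLE factors, table or whole-library totals, no filter or a stricter one, limma 3.58.1 on log2(FPKM + 1) or, with a smaller pseudocount, log2(FPKM + 0.1), a model blocked on replicate number, a threshold of 0.01 and each library left out in turn. The fits were tested on simulated data. Figures used matplotlib 3.10.9.

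Named with values are each TGA match with a tested sum, each TGA cluster past the threshold, the most abundant cluster of each match and, among regulators tied to TGA factors, the 3 matches with the largest change in each direction. Other features are named where a count turns on them, chosen after their values were seen. The members and lists were chosen with earlier results of these data known.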

Additional observations from a re-analysis of the deposited data

How the results depend on the processing

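The counts limit what the cluster test can show, since 14 TGA clusters had too few counts, 5 had none and several of the tested had fewer than 100 counts in each library. The 4 sums called lower passed at 0.05 in each of the 15 other fits. Of them, 3 were left at an adjusted p under 0.01 and 3 with a log2 fold change of 1 or more required. Sums by Swissprot match are other units, which can join clusters of several NR matches, and 3 of those were called lower. The TGA clusters called lower numbered 3, and 1 at an adjusted p under 0.01 and 1 with the replicate number as a block. Leaving out single libraries gave 1 to 3 clusters lower and 0 to 1 higher (Cluster-18319.0, without cold replicate 1, the cold library at 0), and 4 to 5 sums lower and 0 to 1 higher. Replicate numbers did not pair the samples (correlations of same-numbered libraries -0.03, -0.01 and -0.01), and with the block 640 clusters of the whole table were called higher and 671 lower, against 1094 and 1182. limma on log2(FPKM + 1) called 1204 higher and 1760 lower.

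The log2 ratio of the family total was -1.58 with table totals, -1.67 with whole-library totals, -1.30 for FPKM and -0.43 without Cluster-14918.134210 and Cluster-14918.142636. For the TGA1 and TGA4 group it was -1.42 with whole-library totals. For the TGA2 group it was -1.72 with table totals, -1.80 with whole-library totals and -1.29 for FPKM. Directions turned only for values that had not passed. Leaving out single libraries gave -0.66 to 0.09 for Cluster-14918.104844 (0.09 without cold replicate 3), -0.21 to 0.92 for Cluster-14918.38797 and -0.08 to 1.07 for the TGA2-like sum. Cluster-14918.38797 had -0.25 with limma on log2(FPKM + 0.1), -0.15 with the replicate block, -0.21 without cold replicate 3 and -0.00 without control replicate 1. The TGA2-like sum had -0.25 with limma on log2(FPKM + 0.1) and -0.08 without cold replicate 3. HBP-1b(c38)-like had 0.02 with DESeq2 and 0.02 with RLE factors, and TGA-1A-like X2 had -0.03 with whole-library totals. The cause of these moves was not tested.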
